A study of Mus musculus with 29 samples.

Results

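The 10 genes described here encode hormones, hormone receptors and identity factors of granulosa cells, the somatic cells that line the ovarian follicle and of which cumulus cells are the layer around the oocyte. They were chosen by symbol: Fshr, Lhcgr, Amhr2, Amh, Esr2, Inha, Inhba, Inhbb, Foxl2 and Kitl. All 10 had a row among the 24448 genes of the deposited count table.

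RNA was measured in 29 libraries from BDF1 mice: 12 single cumulus cells, 9 control embryos and 8 embryos treated with hydroxyurea (HU), an inhibitor of ribonucleotide reductase. In every embryo a cumulus cell nucleus had been injected into an enucleated MII oocyte (nuclear transfer), which was activated for 6 h in medium with 10 mM Sr2+, CB and EGTA. Control embryos were then cultured without HU, and HU embryos with 10 uM HU, which was exchanged for medium without it after 24 h. Both kinds were collected at the 2-cell stage, 28 h after activation, as single whole embryos. The cumulus cells carry no treatment label and stand for the donors of the nuclei. Smart-seq2, the library method, copies whole transcripts into cDNA without strand or molecular identifiers, and counting intervals therefore cover counting error only. Since no label ties a cell to an animal or culture, the 12 cells count as 1 sample and were not tested. Separate days or oocyte donors are not labelled for the embryos either, and p-values thus measure the spread between these libraries alone, which may be technical.

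Granulosa cells respond to follicle-stimulating hormone (FSH) and, late in follicle growth, to luteinizing hormone (LH), through receptors that raise cyclic AMP. They secrete inhibin, a dimer of an alpha and a beta subunit that lowers FSH release, and activin, a dimer of beta subunits that raises it. They also secrete anti-Müllerian hormone, which restrains follicle recruitment, and KIT ligand, which signals to the oocyte.

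Gene counts per library ran from 317195 to 4051494 in the cumulus cells, from 1801261 to 3472116 in control embryos and from 2442541 to 3757492 in HU embryos. The ribosomal RNA gene Rn45s took 49.3% to 86.6% of gene counts in the cells, 16.2% to 32.5% in control embryos and 15.2% to 29% in HU embryos. Cells held 4054 to 8629 genes with a count, against 13875 to 15132 in control and 12887 to 15421 in HU embryos, and 0.36 to 3.04 gene counts per ERCC spike-in count, against 10.8 to 19.2 and 11.6 to 24.1. Cells 2 and 10 stood apart, with 188546 and 152332 gene counts outside Rn45s. Summed over 14 cumulus and granulosa markers, the level was 425 to 6319 CPM (counts divided by the library's gene counts and put on a common scale) in the cells, lowest in cell 2, and 94.3 to 249 CPM in control embryos. Cyp11a1, which starts steroid synthesis, led that list, with a count in 11 of 12 cells. Of the 14 markers, 10 had a count in at least 6 cells. The others were Ptgs2 with a count in 5 cells, Slc38a3 in 2, and Wt1 and Has2 in 1 each. Of 14 oocyte markers, 9 had no count in any cell, and their sum reached 47.7 CPM at most, in cell 2. Cell 2 also held the highest sum of 8 immune markers, 159 CPM, with a count for 6 of them. Cell 11 came next, with 62.5 CPM and a count for 5. Sums in the cells reached 209 CPM for 9 theca and stroma markers, in cell 11, of which Insl3, Tcf21, Col1a1, Col3a1 and Dcn had no count in any cell and the leading gene, Ptch1, a hedgehog receptor, had one in 9 of 12 cells at 6.34 FPKM (7.69-fold above control embryos), 20.1 CPM for 7 endothelial markers and 5.92 CPM for 6 erythroid markers.

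Sequence windows around the RefSeq starts of the genes that the results turn on are shown first, to give the sequence beside the levels. Inha and Inhba are the pair found in most cells, and Amhr2, Esr2 and Kitl are the genes with a count in every embryo. Each window holds 250 bases before and 50 after the RefSeq start, on GRCm38.p6: Inha chr1:75507359-75507658 (plus strand), Inhba chr13:16011601-16011900 (plus), Amhr2 chr15:102445117-102445416 (plus), Esr2 chr12:76177210-76177509 (minus) and Kitl chr10:100015571-100015870 (plus). RefSeq windows were matched by symbol for 9 of the 10 genes, all but Amh. Capitals mark matches on either strand to AGGTCA, the core element of nuclear receptors such as NR5A1, to TATAAA, the TATA box, and to GGGCGG, the GC box. In the Kitl window 2 GC boxes overlap.
Inha: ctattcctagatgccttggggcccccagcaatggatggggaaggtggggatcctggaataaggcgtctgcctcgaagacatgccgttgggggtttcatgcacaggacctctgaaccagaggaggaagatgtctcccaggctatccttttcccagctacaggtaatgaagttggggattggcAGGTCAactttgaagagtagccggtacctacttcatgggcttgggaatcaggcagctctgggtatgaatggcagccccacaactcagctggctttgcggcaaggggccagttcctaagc
Inhba: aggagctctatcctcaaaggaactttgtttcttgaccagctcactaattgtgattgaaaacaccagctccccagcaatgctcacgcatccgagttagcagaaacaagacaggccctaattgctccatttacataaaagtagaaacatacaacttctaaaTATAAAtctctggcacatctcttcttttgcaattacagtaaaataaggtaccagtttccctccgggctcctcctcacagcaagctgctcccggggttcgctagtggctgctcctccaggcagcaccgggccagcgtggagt
Amhr2: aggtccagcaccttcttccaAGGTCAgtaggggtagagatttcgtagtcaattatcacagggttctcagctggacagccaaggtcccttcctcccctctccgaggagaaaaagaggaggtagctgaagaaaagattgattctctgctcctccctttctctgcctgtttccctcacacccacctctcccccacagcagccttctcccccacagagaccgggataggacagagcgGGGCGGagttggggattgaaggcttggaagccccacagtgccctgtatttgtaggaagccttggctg
Esr2: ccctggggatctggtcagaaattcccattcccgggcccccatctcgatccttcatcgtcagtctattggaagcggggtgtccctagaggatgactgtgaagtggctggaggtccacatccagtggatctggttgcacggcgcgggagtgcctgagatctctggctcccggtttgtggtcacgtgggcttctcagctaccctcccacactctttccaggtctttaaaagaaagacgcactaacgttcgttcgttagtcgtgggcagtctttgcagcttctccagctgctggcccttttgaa
Kitl: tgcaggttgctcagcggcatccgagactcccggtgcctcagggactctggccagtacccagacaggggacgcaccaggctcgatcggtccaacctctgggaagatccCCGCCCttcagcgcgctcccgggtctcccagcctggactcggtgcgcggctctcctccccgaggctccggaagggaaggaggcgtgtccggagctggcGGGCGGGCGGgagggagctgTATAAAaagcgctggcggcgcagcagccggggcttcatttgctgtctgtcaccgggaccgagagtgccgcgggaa

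A match describes letters and is not a shown binding site. The RefSeq start used for Inha and for Kitl lies downstream of the gene start in GENCODE M21, so the whole Inha window and most of the Kitl window fall inside the gene as annotated there. Of 32851 such windows from 27025 genes, 16.3% held AGGTCA, 13.6% TATAAA and 35.7% GGGCGG. Inha held AGGTCA, its first base 69 bases before the RefSeq start but inside the gene as annotated in GENCODE M21. That match is thus not shown to lie in a promoter. Amhr2 held AGGTCA 230 bases before its RefSeq start. The TATAAA match of Inhba lay 91 bases before the start and that of Kitl 25 bases before. The windows held 5 CpG pairs in Inha, 7 in Inhba, 5 in Amhr2, 14 in Esr2 and 28 in Kitl, against a median of 7 over all windows.

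Between genes, levels were compared per length, as deposited FPKM. In the cumulus cells Inhba had the highest mean, 90.4 FPKM, followed by Inha with 80.2, Amhr2 with 8.1, Esr2 with 4.16, Fshr with 2.38, Inhbb with 1.76, Foxl2 with 1.39, Amh with 0.903, Kitl with 0.262 and Lhcgr with 0.13. Neighbours in that order were not separated within cells, except that Inha exceeded Amhr2 in 10 of 12 cells and was below it in 1. Inhba led by its mean although Inha was the higher of the pair in 8 of 12 cells. In control embryos the order was another one: Esr2 led with 27.5 ± 5.34 FPKM (SD, n = 9), then came Amhr2 with 14.6 ± 12.4 and Kitl with 3.34 ± 1.84. Amh averaged 1.01 FPKM there, and the other 6 genes stayed at or below 0.327. In HU embryos Amhr2 averaged 21.8 ± 19 FPKM (SD, n = 8), Esr2 20.6 ± 6.18 and Kitl 1.9 ± 1.05. Amhr2 and Esr2 each led in 4 of those 8 embryos.

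**Figure D1:**
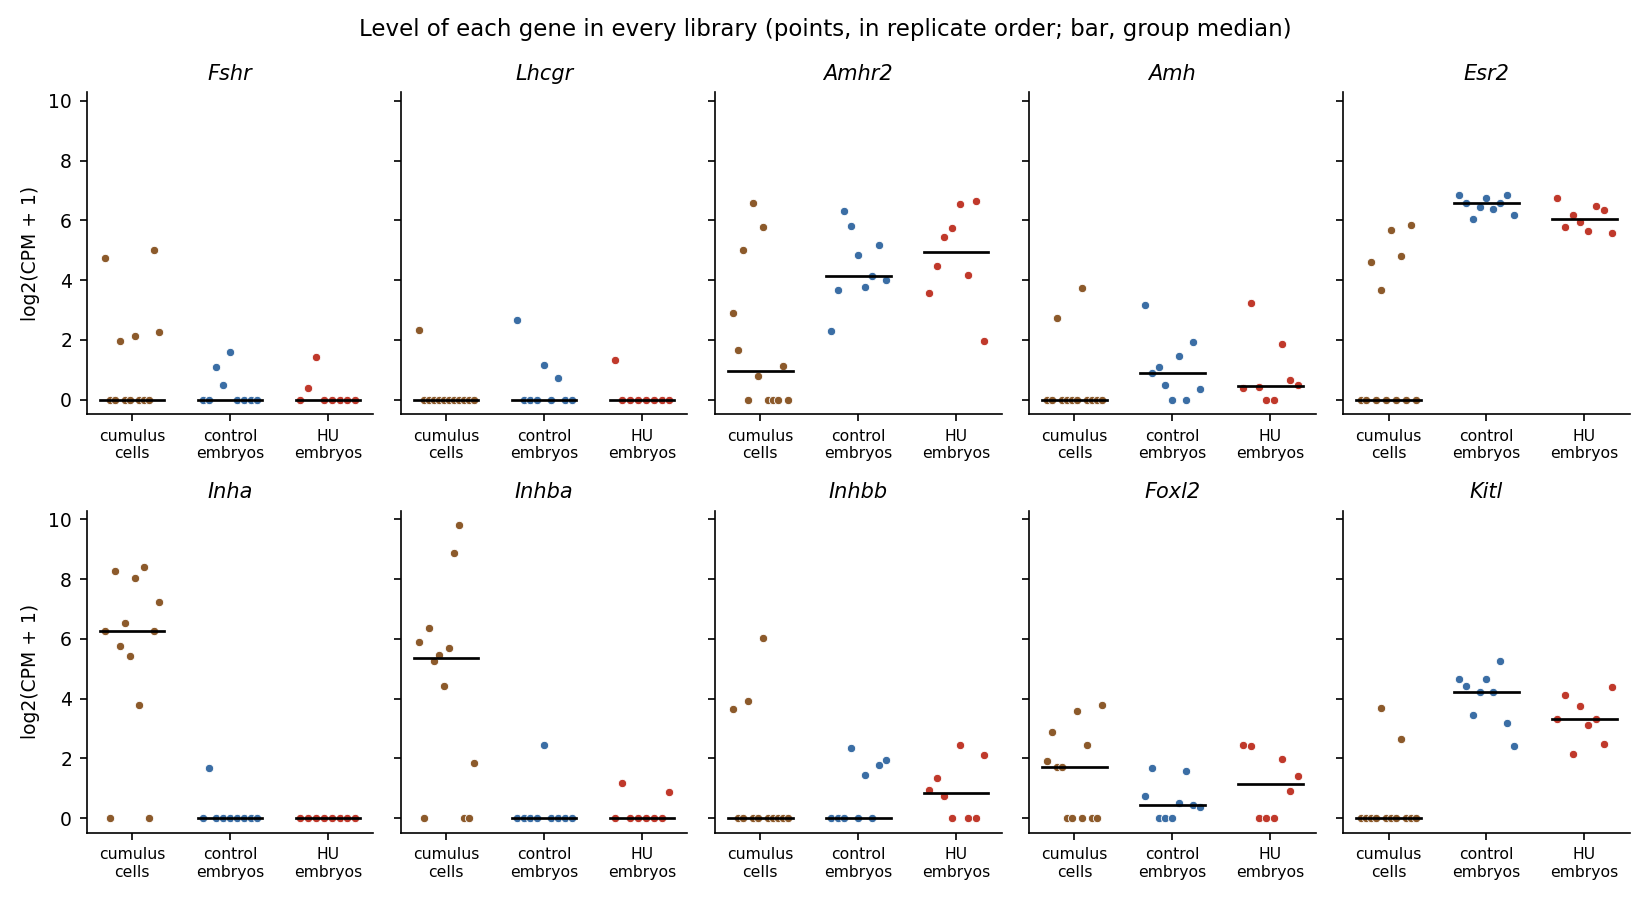
Level of each of the 10 genes in every library, as log2(CPM + 1) on the vertical axis, for 12 cumulus cells, 9 control embryos and 8 hydroxyurea (HU) embryos; points are libraries in replicate order and bars are group medians. Inha and Inhba are high in most cells and near 0 in embryos, while Esr2, Amhr2 and Kitl have a count in all 17 embryos.

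A gene was called detected in the cells where it had a count in at least 6 of 12. By that rule 4 of the 10 genes were detected, Inha, Inhba, Amhr2 and Foxl2, where 29.8% of all genes were. Cells 1 and 7 held the most, 7 of the 10 genes each, and cell 10 held none. With the cells thinned to 317195 gene counts each, Foxl2 fell out, with 5 cells. With at least 5 counts required in a cell, Amhr2 fell out instead, with 4 cells. Without cells 2 and 10, 6 genes had a count in at least 5 of the other 10 cells, as Fshr and Esr2 joined the list. No share of all genes is given for these other rules, so the changes cannot be read as particular to the 10 genes. In the embryos, 3 of the 10 genes had a count in all 17, Esr2, Amhr2 and Kitl, where 39.9% of all genes did.

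Cumulus cells were set against control embryos by the CPM of summed counts, and a gene at least 4-fold apart was counted. Of the 10 genes, 5 exceeded control embryos by at least 4-fold (Inha, Inhba, Fshr, Inhbb and Foxl2), where 12.1% of 16871 genes were. Lower by at least 4-fold were 2, Esr2 and Kitl, where 42.9% of genes were. The shares of 12.1% and 42.9%, and 29.8% for detection, are the background for the related lists below as well. The median log2 ratio was 1.17 over the 10 genes and -1.48 over all genes. That median moved to -0.56 with Rn45s left out of library sizes and to -4.99 per ERCC count, and the shares of genes higher and lower moved to 19% and 30.8%, and to 1.25% and 84.7%. Only Inha and Inhba stayed at least 4-fold higher per ERCC count, and only Kitl stayed at least 4-fold lower with Rn45s left out. In embryos, fewer transcripts per cell and fewer cells that hold a transcript cannot be told apart.

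**Figure D2:**
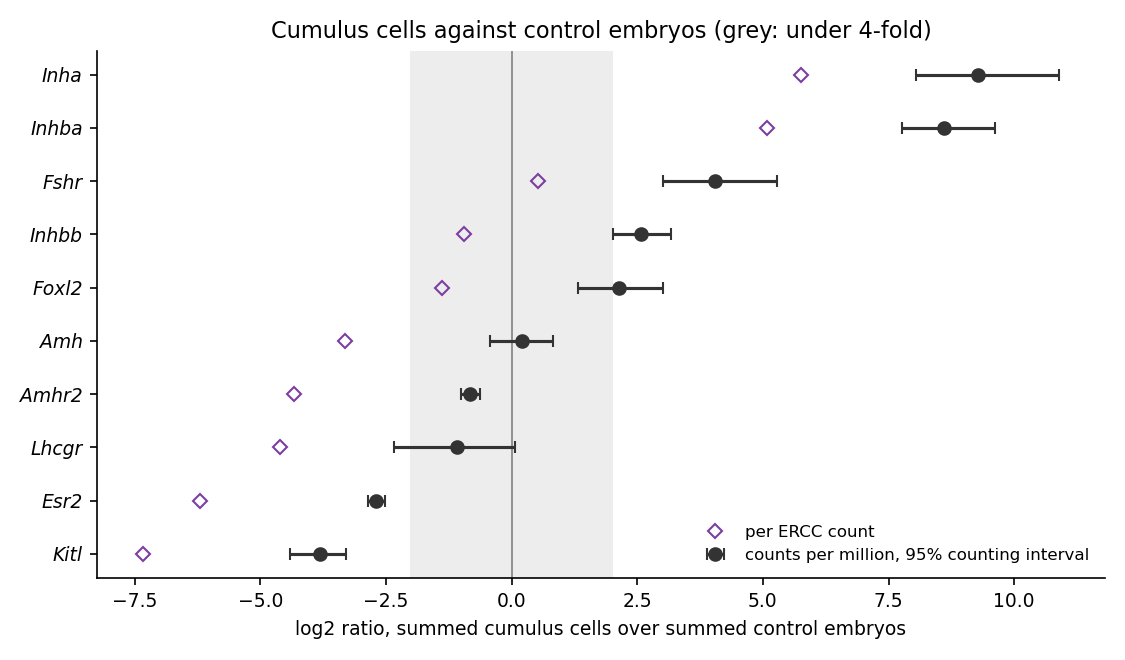
Log2 ratio of summed cumulus cells over summed control embryos for the 10 genes (horizontal axis), as CPM with the 95% counting interval (filled points and bars) and per ERCC count (open diamonds); the grey band covers ratios under 4-fold. Inha at 9.27 and Inhba at 8.61 lie far to the right, Kitl at -3.82 farthest to the left, and Inhbb and Foxl2 cross 0 when scaled by ERCC counts.

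Fshr encodes the FSH receptor (chromosome 17, 88984952 to 89200675, minus strand; positions here and below are GENCODE M21 on GRCm38). It had a count in 5 of 12 cells, at 25.9 CPM in cell 1, 2.87 in cell 4, 3.36 in cell 7, 31.5 in cell 11 and 3.83 in cell 12. Cells 1 and 11 were the high ones, and the other 3 rested on 3 to 7 counts each. All 5 cells with Fshr also had Inha. In control embryos Fshr ran from 0 to 2.05 CPM with a median of 0, and in HU embryos from 0 to 1.69 with a median of 0. The summed level was 16.4-fold higher in cells than in control embryos (95% counting interval 8.08 to 38.8). On the log2 scale that is 4.04, against 3.23 without cell 1, 3.41 without cell 11 and 0.52 per ERCC count.

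Lhcgr, the LH receptor gene, lies beside Fshr (chromosome 17, 88716481 to 88791990, minus strand). Only cell 1 had it, with 10 counts or 3.99 CPM, and cell 1 was also 1 of the 2 cells high in Fshr. Control embryos held 21 counts in 3 embryos and HU embryos 5 counts in 1. The counts were too few to order the groups: the level in control embryos was 2.13 times that of the cells with an interval of 0.96 to 5.06, and cells stood above HU embryos, at 1.04 on the log2 scale.

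Of the 30 genes of the cyclic AMP arm behind these receptors, 14 were detected in the cells by the same rule, 1 was at least 4-fold higher than in control embryos and 12 at least 4-fold lower, shares to be read against 12.1% and 42.9% of all genes. The median log2 ratio of the list was -1.58, against -1.48 over all genes. Prkar1a, 1 of the regulatory subunits of protein kinase A, was that gene. It averaged 57.9 FPKM in cells, with a count in 12 of 12, and 14.9 ± 3.84 (SD, n = 9) in control embryos, and the fold was 4.1. The other regulatory subunits went the other way. Control embryos were 6.71 times the level of cells for Prkar2a and 3.18 times for Prkar2b, and Prkar1b had no count in any cell. Gnas, the stimulatory G protein alpha subunit, averaged 23.9 FPKM in cells and 12.2 ± 4.27 in control embryos. Prkar1a and Gnas had a count in every cell, but they were named for the highest mean FPKM in the cells among the 30 genes. Their counts thus cannot be set against those of the receptors, found in 5 cells and 1. Of the 30 genes, 6 had no count in any cell.

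Amh encodes anti-Müllerian hormone (chromosome 10, 80805243 to 80807648, plus strand). It had counts in 2 cells, 5.66 CPM in cell 3 and 12.4 in cell 8. Counts were more widespread in embryos but low, in 7 of 9 control embryos (0 to 7.91 CPM, median 0.869) and 6 of 8 HU embryos (0 to 8.35, median 0.374). The highest embryo of each group was control 1 and HU 2. Cells over control embryos gave 1.15-fold, with an interval of 0.746 to 1.78 that spans no difference. On the log2 scale this is 0.20, and the sign depends on 1 cell and on the scaling: it was -1.33 without cell 8, which holds 69.4% of the counts in the cells, -0.16 without cell 3, 1.12 with Rn45s left out and -3.31 per ERCC count.

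Amhr2, the type II receptor of that hormone (chromosome 15, 102445367 to 102454633, plus strand), was seen in 7 of 12 cells. The CPM values were 94.1 in cell 5, 53.8 in cell 7, 31 in cell 3, 6.38 in cell 1, 2.14 in cell 2, 1.19 in cell 11 and 0.74 in cell 6. Cells 5, 7 and 3 thus carried most of it, and cells 2, 6 and 11 rested on 2 to 3 counts each. Ligand and receptor occurred together in cell 3 alone. All embryos had Amhr2, from 3.96 to 77.7 CPM (median 16.6) in control embryos and from 2.87 to 100.2 CPM (median 31.8) in HU embryos. The spread within each group exceeded any gap between them: 2 HU embryos lay above all controls and 1 below. Control embryos were 1.76 times the level of cells (interval 1.54 to 2.02), under the 4-fold line. As a log2 ratio of cells over control embryos this is -0.82, against -1.43 without cell 5. The order flipped with Rn45s left out, at 0.10, while per ERCC count the ratio was -4.33, lower by more than 4-fold.

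Inha encodes the inhibin alpha subunit, which makes a dimer inhibin rather than activin (chromosome 1, 75507077 to 75510366, plus strand). It was the most widely detected of the 10 genes in the cells, in 10 of 12. From cell 1 to cell 12 the CPM was 75.8, 0, 311, 52.8, 90.6, 42.2, 260.2, 12.8, 338, 0, 74.9 and 149.5. The cells without it were cells 2 and 10, the 2 with the fewest counts outside Rn45s, and among the others cells 9, 3 and 7 were high and cell 8 low. Embryos were nearly free of it: control 2 held 5 counts (2.17 CPM), the other 8 control embryos none, and the 8 HU embryos none, where 3 counts over the group would be 0.121 CPM. The summed ratio of cells to control embryos was 617-fold (interval 264 to 1901), and 5.75 on the log2 scale per ERCC count.

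Inhba encodes the beta A subunit, shared by inhibin A and activin A (chromosome 13, 16011851 to 16031621, plus strand). Without strand, its reads cannot be told apart from those of 2 genes annotated on the opposite strand, B230303A05Rik and Gm48444. It was found in 9 of 12 cells: the CPM was 57.8, 0, 81.2, 37.3, 43.2, 20.5, 50.9, 471, 893, 0, 0 and 2.56 from cell 1 to cell 12. Cells 9 and 8 stood far above the rest, and cell 9 alone gave 54.7% of the 4349 counts. In embryos Inhba had 11 counts in control 5 and 6 counts in 2 HU embryos, with none in the other 14. The summed ratio of cells to control embryos was 390.0-fold (interval 218 to 782), 5.09 on the log2 scale per ERCC count, and 7.64 in CPM without cell 9.

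Per length, the 2 subunits of inhibin A did not keep a fixed ratio between cells. Of the 9 cells with both, Inha was higher in 7 and Inhba in 2. Inha over Inhba ranged from 0.0283 in cell 8 to 61.1 in cell 12, with a median of 2.15. Cell 8 held 8.72 FPKM of Inha and 308 of Inhba, and cell 12 held 102 and 1.67, though the latter rests on 2 Inhba counts. Cells 1, 4, 5 and 6 lay close together, with ratios of 1.37, 1.48, 2.19 and 2.15. Cell 11 had Inha at 51.2 FPKM and no Inhba count.

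**Figure D3:**
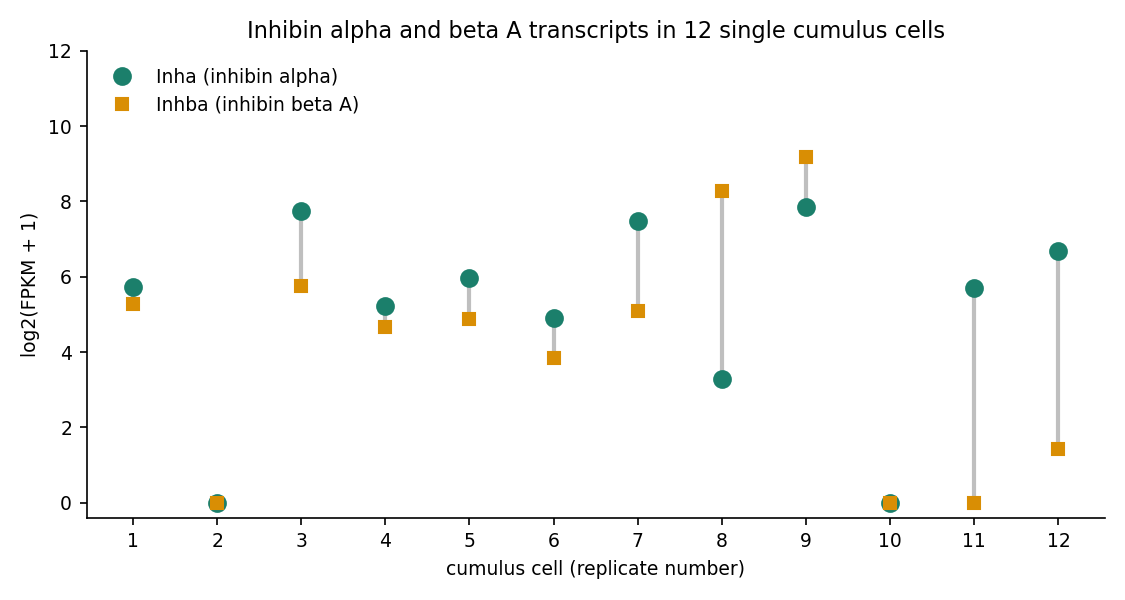
Level of Inha (circles) and Inhba (squares) in each of the 12 single cumulus cells, as log2(FPKM + 1) on the vertical axis, with a grey line joining the pair; the horizontal axis is the replicate number of the cell. Inha is the higher in most cells, cells 8 and 9 have more Inhba, and cells 2 and 10 have neither.

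Over the 12 cells the Spearman rho of Inha and Inhba was 0.586 (log2(CPM + 1), Pearson r 0.563), a description only, since the cells count as 1 sample and differ in depth. Depth moved with Inhba, whose rho with gene counts was 0.718, more than with Inha, at 0.245; its part was not tested. Among 5492 genes with a count in at least 8 cells, those most like Inha were Epb4.1l5 (rho 0.945), Pdia4 (0.893) and P3h4 (0.888). The 3 most like Inhba were Adss (0.952), Rrp36 (0.945) and Ltv1 (0.929).

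Inhbb encodes the beta B subunit of inhibin B and activin B (chromosome 1, 119415465 to 119422248, minus strand). In the cells it appeared in 3, at 63.9 CPM in cell 7, 14.3 in cell 4 and 11.6 in cell 1, and cell 7 gave 71.1% of its counts. All 3 of those cells also had Inha and Inhba. Control embryos ran from 0 to 4.05 CPM (median 0, 4 of 9 with a count) and HU embryos from 0 to 4.47 (median 0.787, 5 of 8). Cells were 5.95-fold above control embryos (interval 4.05 to 9.01), but 0.91 on the log2 scale without cell 7, and below control embryos per ERCC count, at -0.94.

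Of 12 activin and BMP type receptors, a list that includes TGF-beta receptors, 5 were detected in the cells. At least 4-fold higher were 2 and lower 3, with a median log2 ratio of -0.86 against -1.48 over all genes. The activin receptors Acvr1b, Acvr1c, Acvr2a and Acvr2b were not detected, with a count in 1, 2, 2 and 4 cells. Tgfbr1, a type I receptor of TGF-beta, averaged 23.4 FPKM with a count in 12 of 12 cells, against 6.38 ± 3.23 (SD, n = 9) in control embryos. Acvr1 averaged 6.99 with a spread between cells of 18.1 (SD) and a count in 7, against 3.12 ± 2.98, and its summed ratio was 0.953. Of 8 SMAD genes, 4 were detected, none was at least 4-fold higher and 5 were lower, with a median log2 ratio of -2.34. With so few genes, these counts are to be read against 12.1% higher and 42.9% lower among all genes. Smad3, which carries activin and TGF-beta signals, averaged 4.31 FPKM in cells and 23.4 ± 6.61 in control embryos, and the shared partner Smad4 averaged 3.53 and 10.1 ± 2.65.

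Of 14 activin binding proteins and SMAD target genes, 3 were higher in the cells by at least 4-fold and 5 lower, with a median log2 ratio of 0.45. Id2, a helix-loop-helix inhibitor, averaged 325 FPKM with a count in 11 of 12 cells, against 40.5 ± 23 (SD, n = 9) in control embryos. Grem1, a secreted BMP antagonist known from cumulus cells, averaged 68.1 FPKM with a count in 9 cells, against 0.343 ± 0.526, and the summed ratio was 217-fold.

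Esr2 encodes estrogen receptor beta, the main estrogen receptor of granulosa cells (chromosome 12, 76120419 to 76177259, minus strand; the pseudogene Gm7862 overlaps it by 292 bases on the same strand). It had a count in 5 of 12 cells, at 55.9 CPM in cell 11, 49.9 in cell 7, 26.7 in cell 9, 23.4 in cell 3 and 11.8 in cell 5, and none in the others. Control embryos ran from 64.4 to 114 CPM with a median of 95.3, all above the cells on this scale. With Rn45s left out of library sizes the groups overlapped: cell 11, at 194 CPM, was above all 9 control embryos (80.5 to 145 CPM), and cell 7, at 98.6 CPM, above 1 of them. HU embryos ran from 46.7 to 106 CPM of all gene counts with a median of 65.5, so the highest 2 cells lay within their range. The summed level in control embryos was 6.44 times that of the cells (interval 5.75 to 7.23), and under 4-fold with Rn45s left out, where the log2 ratio of cells over control embryos was -1.77. Per ERCC count that log2 ratio was -6.20. Oocyte markers, which summed to 9166 to 15024 CPM in control embryos, moved with this difference, and their part in it was not tested.

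Of 15 other nuclear receptor and coregulator genes, 9 were detected in the cells, 3 were at least 4-fold higher and 4 lower, with a median log2 ratio of -0.47. Nr5a1, the orphan receptor known as steroidogenic factor 1, had a count in 12 of 12 cells at 16.2 FPKM and averaged 0.044 ± 0.096 (SD, n = 9) in control embryos, with a summed ratio of 383-fold. Its relative Nr5a2 averaged 6.69 FPKM in cells and 5.44 ± 2.33 in control embryos. Nr5a1, named for its high mean in the cells, had a count in more cells than any of the 10 genes.

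Foxl2, a forkhead factor that maintains granulosa identity against Sertoli fate (chromosome 9, 98955288 to 98958543, plus strand), had a count in 7 of 12 cells at low levels. The CPM was 12.8 in cell 12, 11 in cell 7, 6.41 in cell 2, 4.51 in cell 9, 2.79 in cell 1, 2.29 in cell 4 and 2.26 in cell 3. No cell stood far above the rest on this scale, and cell 2 held it without Inha or Inhba. With Rn45s left out of library sizes, cell 2 was the highest, at 47.7 CPM from 9 counts, ahead of cell 12 at 27 CPM. Cell 2 was also the cell with the highest immune and oocyte marker sums. Control embryos ran from 0 to 2.17 CPM of all gene counts (median 0.348) and HU embryos from 0 to 4.49 (median 1.25), with 3 HU embryos above all controls. Cells were 4.38-fold above control embryos (interval 2.52 to 8.07), and 1.55-fold above HU embryos. On the log2 scale the ratio to control embryos was 2.13, and under 4-fold without cell 7 (1.70) or cell 12 (1.96); per ERCC count the order reversed, at -1.38 on the log2 scale. The antisense gene Foxl2os overlaps Foxl2 by 12 bases, with 58 counts in the cells and 141 in the embryos, and reads there cannot be assigned without strand.

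Among 17 other granulosa transcription and WNT factors, 7 were detected, 4 were at least 4-fold higher in cells and 3 lower, with a median log2 ratio of 0.20. Ctnnb1, beta-catenin, averaged 40.2 FPKM in cells and 20.3 ± 8.82 (SD, n = 9) in control embryos. Runx2, a runt-domain factor, averaged 28.5 FPKM with a count in 11 of 12 cells, against 0.882 ± 0.578, with a summed ratio of 34.9-fold. Of 12 genes known from Sertoli cells, the testis counterpart of granulosa cells, 1 was detected in the cells and 6 had no count in any; 2 were at least 4-fold higher and 6 lower, with a median log2 ratio of -3.97. The detected one was Gdnf, at 1.54 FPKM with a count in 8 cells; Dhh had a higher mean, 2.07 FPKM, from 1 cell.

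Kitl encodes KIT ligand, which granulosa cells present to the oocyte (chromosome 10, 100015630 to 100100416, plus strand). In the cells it was found in cell 5 at 11.8 CPM and in cell 9 at 5.26 CPM, and in no other. Control embryos all had it, from 4.32 to 37.2 CPM with a median of 17.8, and so did HU embryos, from 3.38 to 20.1 CPM with a median of 9.01. Most embryos thus stood above most cells, while both cells with Kitl, 5 and 9, lay within the range of both embryo groups. With Rn45s left out of library sizes, cell 5, at 32.5 CPM, was above all HU embryos (4.45 to 25.6 CPM). Among control embryos only control 7, at 45.6 CPM, was then higher than cell 5. Cell 9, at 11.5 CPM, stayed within both ranges. By summed CPM of all gene counts, control embryos were 14.1 times the level of cells (interval 9.81 to 21.1), and 7.83 was the ratio of HU embryos to cells. The log2 ratio of cells over control embryos was -3.82, with -4.88 without cell 5, -4.52 without cell 9, -2.90 with Rn45s left out and -7.33 per ERCC count. The receptor Kit followed the same order: it averaged 0.701 FPKM in cells, with counts in 2, and 28.4 ± 5.85 (SD, n = 9) in control embryos, 25.2 times higher by summed CPM. Of 5 oocyte partner factors including Kit (median log2 ratio -5.03), 4 were at least 4-fold lower in the cells and Bmp6 was the exception, at 6.23 FPKM against 13.4 ± 4.99.

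The 10 genes were also set beside lists of the cells' other known activities. Of 11 cumulus expansion genes 8 were above control embryos by at least 4-fold and 1 below, with a median log2 ratio of 4.70, and 3 were detected in at least 6 cells. Vcan averaged 15.4 FPKM with a count in 11 cells, and Tnfaip6 averaged 47.4 FPKM with a count in 9. Of 12 steroid synthesis genes 8 were at least 4-fold higher and 2 lower, with a median log2 ratio of 2.95, and 9 were detected. Akr1c18, which inactivates progesterone, averaged 1313 FPKM with a spread between cells of 2674 (SD) and a count in 8 cells. Hsd3b1, which makes progesterone, averaged 1053 FPKM with an SD of 1539 and a count in 10 cells. Inha averaged 80.2 FPKM with an SD of 82.5, also with a count in 10 cells.

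**Figure D4:**
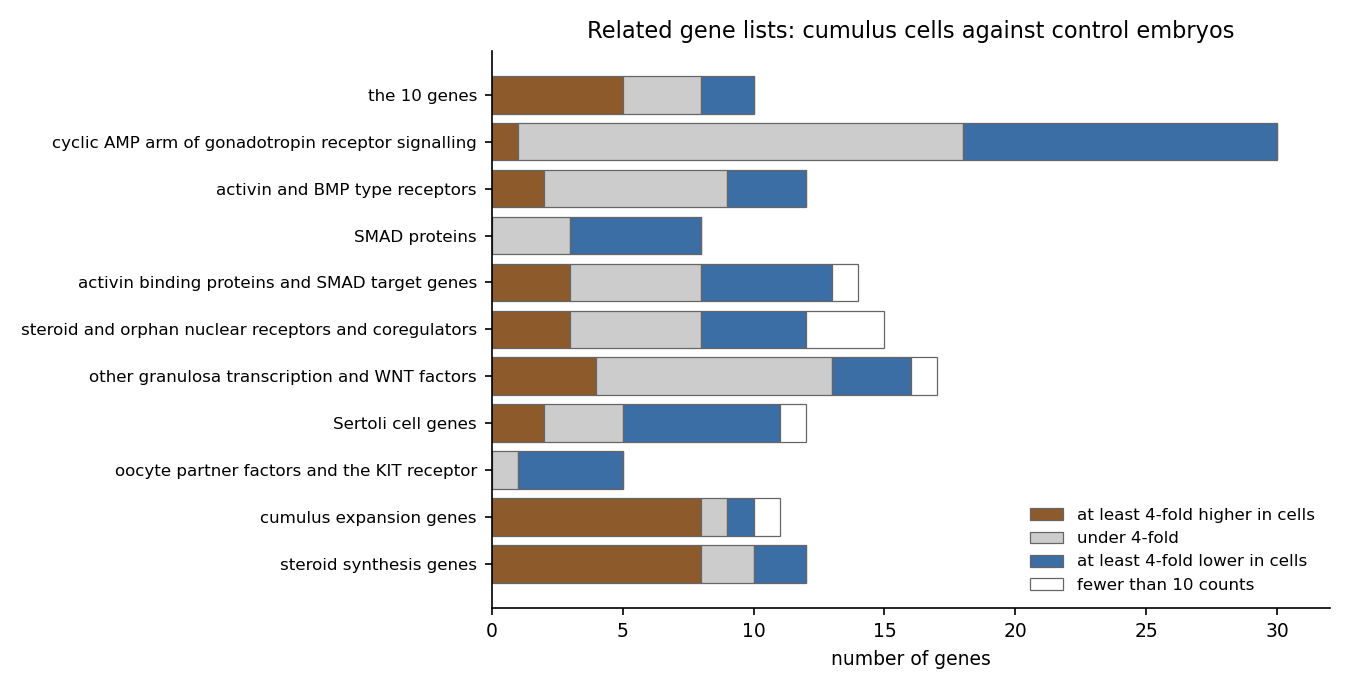
Number of genes (horizontal axis) in the 10-gene set and in 10 related lists that were at least 4-fold higher in cumulus cells than in control embryos (brown), under 4-fold apart (grey), at least 4-fold lower (blue) or had fewer than 10 counts over both groups (white). Higher genes make up 8 of 12 steroid synthesis and 8 of 11 cumulus expansion genes, 5 of the 10 genes described here, and none of 8 SMAD genes. Among all genes compared, 12.1% were higher and 42.9% lower.

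HU was compared with control embryos by the quasi-likelihood F test of edgeR over all 11476 genes that passed the filter on low counts, with Benjamini-Hochberg adjustment at 0.05. Esr2, Amhr2 and Kitl were tested; the other 7 genes did not pass the filter. Of these 3, 0 were called, where 0% of all genes were. With p left unadjusted, 671 genes (5.85%) and 0 of the 3 were under 0.05, and 2.04% of all genes were so in the lower direction. Under other settings the unadjusted p of Esr2 or Kitl passed below 0.05 without a call after adjustment: for Esr2 it was 0.0492 with library size scaling only, 0.0382 by limma on FPKM, 0.0237 without HU 1 and 0.0482 without HU 6, and for Kitl 0.0431 without control 8, 0.034 without control 9 and 0.0355 without HU 8. DESeq2 called 3 of 11476 genes and limma-voom 0, none of them among the 10.

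Kitl was 18.2 ± 10 CPM in control embryos (SD, n = 9) and 10.3 ± 5.7 CPM in HU embryos (SD, n = 8). The ranges overlapped: 7 of 8 HU embryos lay below the control median and 1 below all controls. The log2 fold change was -0.78 ± 0.41 (SE), with a 95% interval of -1.63 to 0.08 and an edgeR adjusted p of 0.835. Its receptor Kit had a log2 fold change of -0.23 ± 0.16 (edgeR adjusted p 0.868).

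Esr2 was 92.3 ± 17.9 CPM in control embryos (SD, n = 9) and 69.1 ± 20.8 CPM in HU embryos (SD, n = 8). Here 4 of 8 HU embryos lay below all controls and 7 below the control median, while HU 1, at 106 CPM, stood among the highest controls. The log2 fold change was -0.36 ± 0.20 (SE), with a 95% interval of -0.79 to 0.06 and an edgeR adjusted p of 0.835.

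Amhr2 was 28.3 ± 24.1 CPM in control embryos (SD, n = 9) and 42.4 ± 37 CPM in HU embryos (SD, n = 8). Within each group the SD was close to the mean, with control 3 at 77.7 CPM and HU 7 at 100.2 CPM as the highest. The log2 fold change was 0.67 ± 0.56 (SE), with a 95% interval of -0.50 to 1.84 and an edgeR adjusted p of 0.883. It was 0.26 without HU 7 and 1.02 without control 3.

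**Figure D5:**
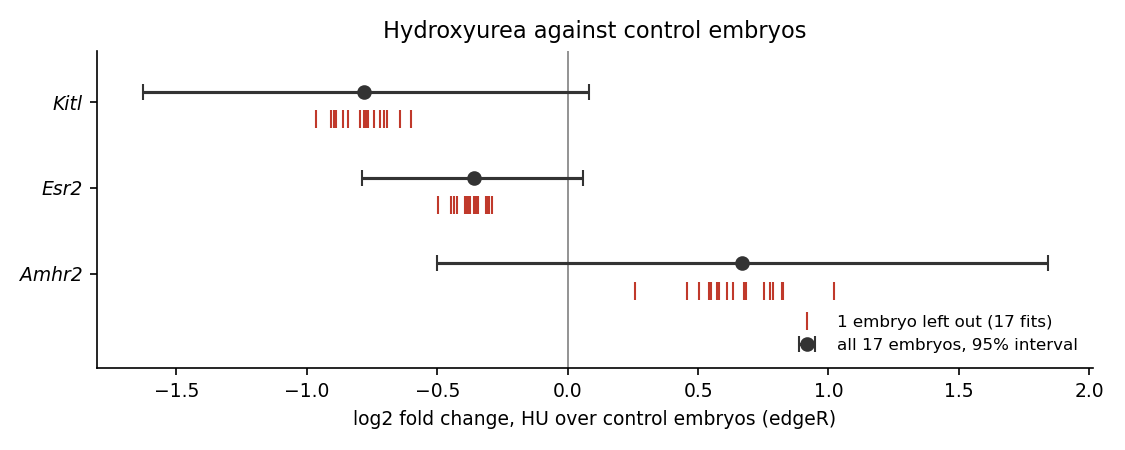
Log2 fold change of HU over control embryos (horizontal axis, edgeR) for Kitl, Esr2 and Amhr2: points with the 95% interval for all 17 embryos, and red ticks for the 17 fits that leave out 1 embryo each. All 3 intervals include 0, and all ticks of a gene lie on 1 side of it.

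The other 7 genes had few counts in either embryo group. Foxl2 had 16 counts in control and 47 in HU embryos, Amh 42 in each, Inhbb 31 and 29, Lhcgr 21 and 5, Inhba 11 and 6, Fshr 8 and 6, and Inha 5 and 0. Without the filter 0 of them were called by edgeR; the lowest adjusted p, 0.444 for Inha at a log2 fold change of -2.65 ± 1.09 (SE), rests on the 5 counts of control 2. In the 10 related lists 85 genes were tested by edgeR, of which 0 were called and 6 had an unadjusted p under 0.05.

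Over the 17 embryos, Esr2, Amhr2 and Kitl did not vary together: Spearman rho was -0.279 for Esr2 and Amhr2, -0.444 for Kitl and Amhr2, and 0.304 for Esr2 and Kitl. These are descriptions over libraries of both groups. Among 12330 genes with a count in at least 14 embryos, those most like Amhr2 were Anapc7 (rho 0.941), Ece2 (0.912) and Tmem41b (0.9). Esr2 was most like Ceacam20 (0.826), Pik3cd (0.821) and Gng3 (0.804), and Kitl most like Car9 (0.917), Mtf1 (0.86) and Hdac9 (0.85). For these 3 genes the Pearson r with Kitl was 0.871, 0.775 and 0.567. The genes named are again the highest of a search and were not tested.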

How the data were processed

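The authors deposited raw counts per gene (24448 genes and 92 ERCC spike-ins in 29 libraries) and FPKM values. The submitters' processing notes name mm10 as the build and list STAR 2.7.3a, R 4.0.2 and FastQC. Which counter, annotation and strand option were used is not given in the sources used here. Deposited FPKM equalled the counts scaled by gene length and by the library's gene counts for 18588 of 18588 genes counted in 2 or more libraries (tolerance 0.001).

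CPM was computed from gene counts, with ERCC rows left out. HU and control embryos were compared with edgeR 4.0.16 in R 4.3.3 (quasi-likelihood F test, TMM factors, filterByExpr, only the 17 embryos, no covariate), with Benjamini-Hochberg adjustment over all genes tested. DESeq2 1.42.0 and limma 3.58.1 were alternatives, as were other scalings, no filter, and each embryo or cell left out in turn. Cumulus cells were summed and given exact Poisson intervals (95%) without a test; genes with at least 10 counts over cells and control embryos were compared. Scripts were tested on simulated data.

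The 10 genes and 16 related lists were chosen with earlier results of these data known. Named beside the 10 genes were, by rule, the 2 genes of each pathway list with the highest mean FPKM in the cells, any called in HU embryos, the leading gene of each marker list, and the 3 genes nearest in Spearman rho. Of the marker leaders only Cyp11a1 and Ptch1 are described, since no result turns on the others. Marker genes without a count in any cell were named after their values were seen. So were the cumulus and granulosa markers with a count in fewer than 6 cells, the activin receptors, and Prkar1b, Prkar2a and Prkar2b.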

Additional observations from a re-analysis of the deposited data

Results flagged for a closer look

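In 7 of 19 groups of embryos examined, 1 embryo lay far from the others in CPM by Dixon's rule. Chance flags about 1 group in 20 where values follow a normal distribution, but not in groups made mostly of zeros, where a single embryo with a count is flagged by construction, so the number of flags cannot be read against that rate. All 7 are low-count genes in which most embryos of the group had few or no counts. Fshr reached 1.69 CPM in HU 3, where 6 of the 8 HU embryos had none. Lhcgr stood apart in both groups, at 5.27 CPM in control 1 and 1.5 CPM in HU 1, the latter being the only HU embryo with a count. Amh stood at 7.91 CPM in control 1 and 8.35 CPM in HU 2, where 7 of 9 control and 6 of 8 HU embryos had a count. Inha reached 2.17 CPM in control 2 and Inhba 4.5 CPM in control 5, each the only control embryo with a count. Control 1 was thus high for both Lhcgr and Amh.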

How the results depend on the processing

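In HU against control embryos, Kitl, Esr2 and Amhr2 were not called under any of 26 alternatives; the fit with all 3 groups tested 5 of the 10 genes and the fit without a filter all 10, with 0 called. The log2 fold change ranged from -0.972 to -0.538 for Kitl, -0.497 to -0.199 for Esr2 and 0.258 to 1.02 for Amhr2, with lowest adjusted p of 0.585, 0.581 and 0.634. DESeq2 called 3 genes of the whole table, and leaving out 1 embryo gave 0 to 1 genes, the 1 without HU 8. At an unadjusted p under 0.05, edgeR had 437 genes higher and 234 lower, ERCC scaling 629 and 27, no filter 1193 and 797, limma-voom 350 and 356, and a fit with all 3 groups 42 and 18; the cause was not tested. Over all genes the median log2 fold change was 0.04, and 0.19 with ERCC scaling. The shared replicate numbers do not pair the embryos: 1 of 8 same-numbered pairs correlated above 0.1 (-0.103 to 0.167) and none correlated best with its own number. With the replicate block 0 genes were called, and the log2 fold changes were -0.972 for Kitl, -0.439 for Esr2 and 0.487 for Amhr2.

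In cumulus cells against control embryos, 5 of the 10 genes were at least 4-fold higher and 2 lower. With Rn45s left out 1 was lower. Per ERCC count 2 were higher and 5 lower, and Inhbb (-0.94) and Foxl2 (-1.38, both log2) reversed. At 8-fold, 3 were higher and 1 lower, where 6.93% and 29.8% of 16871 genes were. Leaving out 1 cell gave 3 to 5 higher (3 without cell 7, 4 without cell 12) and 2 to 3 lower (3 without cell 1). Leaving out cells 2 and 10, chosen after seeing the data, gave 5 and 2. The number detected in the cells was 3 to 6 over its alternatives, against 4, with no share of all genes given for those rules. In shallow cells a gene without a count may still be transcribed: 3 counts in cell 10 would be 9.46 CPM.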
